A study of Mus musculus with 12 samples.

Results

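The RNA-seq of 6 oil-treated hepatocyte libraries, of 12 libraries in the series, was read by the level of the tdTomato reporter that each library carried. The libraries were grouped by the reporter's CPM (counts scaled to the total of each column): 3 libraries with 500 CPM or more were called reporter-high and 3 with less were called reporter-low. The classes were chosen by measured values, so the reporter itself is described and not tested, and every other gene was left out of the choice. Tom- oil 1, Tom+ oil 1 and Tom+ oil 3 were reporter-high, whereas Tom- oil 2, Tom- oil 3 and Tom+ oil 2 were reporter-low. The classes depart from the deposited labels in 2 libraries: Tom- oil 1 is labelled negative but carried the reporter at 1772 CPM, and Tom+ oil 2 is labelled positive but carried it at 133 CPM. The labels were kept as names, and neither assignment is taken here as the corrected one.

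All 6 libraries came from hepatocytes of heterozygous male p16-Tom mice on the C57BL/6 background, which carry p16-CreERT2 and R26-CAG-LSL-tdTomato-WPRE, received tamoxifen, and were given corn oil, the vehicle of the fibrosis model. The other 6 libraries came from p16-Tom mice given CCl4 in corn oil, a solvent that injures hepatocytes near the central vein, and are used only for comparison. The labels give neither the age of the mice nor the length of treatment. In p16-Tom mice the recombinase is driven by p16Ink4a (Cdkn2a), a cyclin-dependent kinase inhibitor that accumulates in senescent cells, so that cells using this promoter when tamoxifen is given keep expressing tdTomato. The reporter is then driven by the CAG promoter, and its level records a past recombination rather than the present p16Ink4a level. Livers were dissociated with collagenase, and living cells were sorted into Tom+ and Tom- fractions, from which polyA RNA was taken. The libraries are bulk samples, so that fewer cells of a type and less RNA per cell cannot be told apart. It is not stated whether a replicate number marks one mouse, and p-values measure the spread between these libraries.

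Hepatocytes differ along the line from the portal vein to the central vein. Those next to the central vein (zone 3) receive Wnt signals from the central vein endothelium, use the glutamine synthetase Glul to capture ammonia, and carry much of the cytochrome P450 metabolism of drugs. Those near the portal vein (zone 1) carry out urea synthesis, gluconeogenesis and amino acid breakdown. Because this gradient is strong, a sorted fraction that holds more cells of one zone than another differs in these genes.

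The feature taken as the reporter carries an identifier but no gene name in the deposited table, where it is placed on a chromosome 20 that the mouse lacks, from base 1 to base 2325. Its identity as tdTomato is therefore inferred, and in CCl4 its level followed the Tom labels. Its level was 1772 CPM in Tom- oil 1, 1589 CPM in Tom+ oil 1 and 1199 CPM in Tom+ oil 3. It was 158 CPM in Tom- oil 2, 140 CPM in Tom- oil 3 and 133 CPM in Tom+ oil 2. The nearest libraries on either side of the limit were therefore Tom+ oil 3 at 1199 CPM and Tom- oil 2 at 158 CPM, and no oil library lay between them. In the CCl4 libraries it stood at 1448, 1399 and 1416 CPM in Tom+ 1, 2 and 3 and at 117, 253 and 114 CPM in Tom- 1, 2 and 3. Both oil libraries numbered 1 were reporter-high and both numbered 2 were reporter-low, so that only number 3 held both classes.

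**Figure D1:**
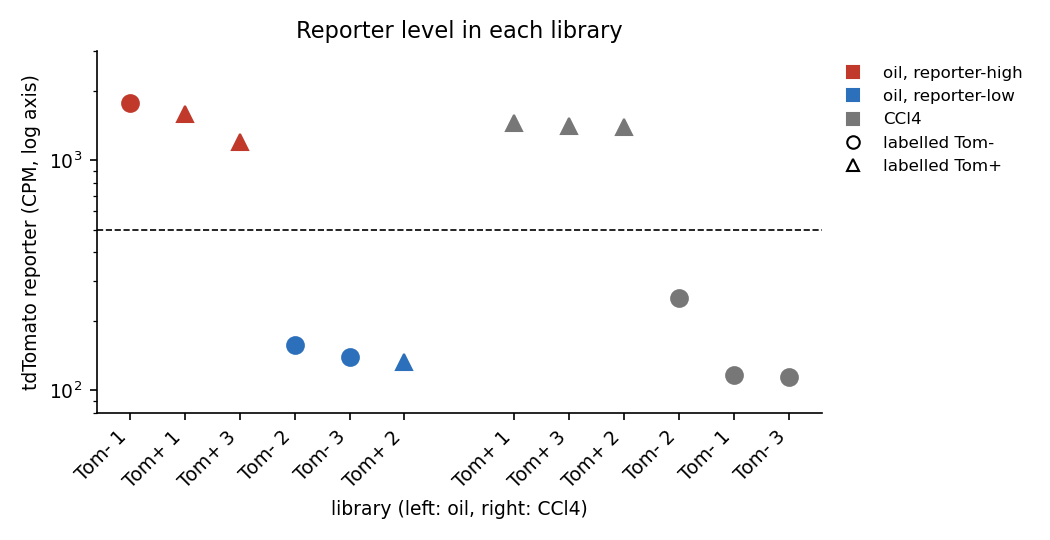
The level of the tdTomato reporter (CPM, log axis) is plotted for each library, in oil on the left and CCl4 on the right, with circles for libraries labelled Tom- and triangles for Tom+. The dashed line is the limit of 500 CPM, and 1 circle (Tom- oil 1, 1772 CPM) lies above it among the oil libraries and 1 triangle (Tom+ oil 2, 133 CPM) below it.

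Total counts of the oil libraries ranged from 38396635 to 67382916 (median 50546466), and 3 counts, the smallest level taken as detectable, corresponded to 0.0445 to 0.0781 CPM. Such limits cover counting error only. The 10 hepatocyte markers summed to between 101300 and 130700 CPM in each oil library, with classes that overlapped. Markers of cholangiocytes, lymphocytes and neutrophils summed to at most 7.58, 5.01 and 0.814 CPM, and Krt7, Krt19, Cd3e and S100a9 among them did not pass 3 counts in any oil library. The share of counts from mitochondrially encoded genes was 3.66%, 3.76% and 4.28% in the reporter-high libraries (Tom- 1, Tom+ 1, Tom+ 3) and 2.55%, 1.87% and 3.64% in the reporter-low libraries (Tom- 2, Tom- 3, Tom+ 2). The classes were barely apart in this share, by 3.66% in Tom- oil 1 against 3.64% in Tom+ oil 2, and its part in the results below was not tested.

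Reporter-high and reporter-low libraries were compared over 16032 expressed genes with edgeR's quasi-likelihood test, with both an adjusted p (Benjamini-Hochberg) under 0.05 and an absolute log2 fold change over 0.75 required. At these thresholds 7 genes (0.0437%) were lower and 0 genes (0%) were higher in reporter-high libraries. At an unadjusted p under 0.05 there were 1019 genes. DESeq2 counted 52 genes lower, which included all 7, and 2 higher, whereas limma-voom counted 4 lower and 0 higher. When replicate number entered as a block, a fit that rests on number 3 alone, edgeR counted 0 genes in both directions. The count of 7 became 0 without Tom- oil 1, Tom+ oil 1, Tom+ oil 2 or Tom+ oil 3 and 1 without Tom- oil 2, and it was 6 without Tom- oil 3. With the labels as deposited, which use the same 6 libraries, edgeR counted 0 genes in both directions, 1108 at an unadjusted p under 0.05, and limma-voom 0, whereas DESeq2 counted 6 higher and 18 lower. With the replicate block this labelled comparison gave 0 genes higher and 18 lower in Tom+.

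The 7 genes that fell were 2 of zone 3 (Slc13a3 and Cyp2a5), the transporter Slc1a4, the calcineurin regulator Rcan2 and 3 genes of detoxifying enzymes (Ces2c, Cyp2d11 and Gstm2). Slc13a3, a sodium-coupled dicarboxylate transporter, is on chromosome 2 (165405028 to 165473230, mm10). Its level was 2.49, 1.88 and 2.096 CPM (TMM-normalised, as all levels from here on) in Tom- oil 1, Tom+ oil 1 and Tom+ oil 3. It was 28.4, 13.7 and 17.4 CPM in Tom- oil 2, Tom- oil 3 and Tom+ oil 2. The highest reporter-high library was thus far below the lowest reporter-low library. The log2 fold change was -3.21 ± 0.29 (SE, n = 3 against 3, edgeR adjusted p = 0.0175). Cyp2a5, a cytochrome P450 that hydroxylates coumarin and nicotine, had 46.2, 29.0 and 44.4 CPM in the reporter-high and 184, 132 and 144 CPM in the reporter-low libraries, in the same order. Its classes did not overlap either, and its log2 fold change was -1.94 ± 0.20 (SE, edgeR adjusted p = 0.0392). Slc1a4, a transporter of neutral amino acids, had 3.59, 3.20 and 2.58 CPM in reporter-high against 13.2, 9.47 and 11.2 CPM in reporter-low libraries. This was a log2 fold change of -1.85 ± 0.18 (SE, edgeR adjusted p = 0.0175), with little spread within either class.

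Rcan2, a regulator of calcineurin, stood at a low level in both classes, with 0.943, 0.631 and 0.512 CPM in reporter-high and 8.27, 5.39 and 4.002 CPM in reporter-low libraries (log2 fold change -3.09 ± 0.34 SE, edgeR adjusted p = 0.0302). Ces2c, a carboxylesterase, had 10.9, 9.08 and 8.87 CPM against 34.8, 22.5 and 24.4 CPM (-1.50 ± 0.18 SE, edgeR adjusted p = 0.0392). Cyp2d11, a cytochrome P450, had 8.01, 7.22 and 8.02 CPM against 17.0, 16.4 and 19.0 CPM (-1.18 ± 0.11 SE, edgeR adjusted p = 0.0175). Gstm2, a glutathione transferase, had 23.9, 22.3 and 23.4 CPM against 54.0, 44.4 and 45.9 CPM (-1.05 ± 0.10 SE, edgeR adjusted p = 0.0175). All 4 genes were lower in each reporter-high library than in each reporter-low library. Cyp2a5, Ces2c, Cyp2d11 and Gstm2 have close copies in the genome, and their values were not whole numbers in 4 or more of the 6 libraries, so that reads divided between copies may enter them. Slc13a3, Slc1a4 and Rcan2 had whole values in every oil library.

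**Figure D2:**
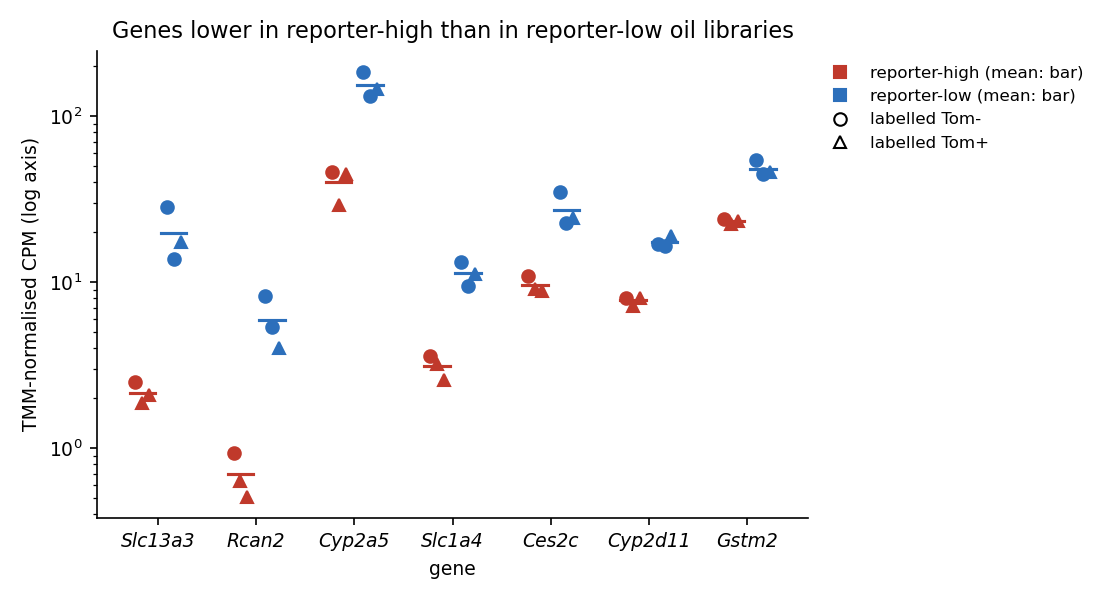
Levels of the 7 genes counted as lower are plotted for each oil library (CPM, log axis), in red for reporter-high and blue for reporter-low libraries, with bars at the class means and circles and triangles for the labels Tom- and Tom+. In each gene the Tom- circle among the red points (Tom- oil 1) lies with the red triangles, and the blue triangle (Tom+ oil 2) lies with the blue circles, so that Slc13a3 stood at 2.49 CPM in the former and 17.4 CPM in the latter.

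Since the classes did not overlap in these 7 genes, the same order within each label follows and adds no support. It is given as a description. Among the Tom- libraries, Slc13a3 was 2.49 CPM in Tom- 1 against 28.4 and 13.7 CPM in Tom- 2 and Tom- 3, and among the Tom+ libraries it was 1.88 and 2.096 CPM in Tom+ 1 and Tom+ 3 against 17.4 CPM in Tom+ 2. Within number 3, where class and label go together, it was 2.096 CPM in Tom+ and 13.7 CPM in Tom-. With the deposited labels the log2 fold change of Slc13a3 was -1.07 (edgeR adjusted p = 0.906), and those of Slc1a4, Rcan2 and Cyp2a5 were -0.63, -1.51 and -0.73 (adjusted p of 0.906, 0.846 and 0.901). None of the 7 genes passed edgeR's test without the block with the labels as deposited.

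Zone 3 genes as a list were lower in reporter-high libraries. Of 30 members tested, 29 had a log2 fold change below 0 and the median was -0.67, whereas over all genes 7500 of 16032 were below 0 and the median was 0.02. Slc13a3 and Cyp2a5 were the 2 members that passed edgeR's test, and DESeq2 counted 10. In 22 of the 30 members every reporter-high library lay below every reporter-low library, against 6.35% of all genes. No member lay entirely above, against 6.82% of all genes. The 22 members without overlap enter each of the following counts by their order alone, so these counts are not separate evidence. In the Tom- libraries 24 of 30 members were lower in Tom- 1 than in both others (35.4% of all genes). In the Tom+ libraries 26 of 30 were lower in Tom+ 1 and Tom+ 3 than in Tom+ 2 (30.8% of all genes), and within number 3 it was 29 of 30 (47.4% of all genes). By the deposited labels, 28 of the 30 members were also below 0 (7849 of 16032 over all genes), with a median of -0.48. The fall of the list was thus not particular to the reporter classes. The list was written from general knowledge of liver zonation with results of these data known, and no test over the list was made.

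Among the members tied to Wnt signalling, Glul was at 47.8, 34.1 and 40.1 CPM in the reporter-high libraries Tom- 1, Tom+ 1 and Tom+ 3, and at 318, 119 and 164 CPM in the reporter-low libraries Tom- 2, Tom- 3 and Tom+ 2. The classes did not overlap, but the spread within the low class was large, and the log2 fold change of -2.30 ± 0.40 (SE) did not pass in edgeR (adjusted p = 0.511). Lgr5, a receptor for R-spondins that strengthens Wnt signals, was at 1.02, 0.344 and 0.731 CPM against 5.25, 3.33 and 2.69 CPM (log2 fold change -2.47 ± 0.42 SE, edgeR adjusted p = 0.233). Axin2, a feedback inhibitor of the pathway, was at 2.51, 1.74 and 1.63 CPM against 5.71, 2.77 and 4.48 CPM (-1.14 ± 0.30 SE, edgeR adjusted p = 0.591). Tbx3, a transcription factor of zone 3, was at 7.52, 6.80 and 8.51 CPM against 17.8, 12.9 and 14.8 CPM (-0.9997 ± 0.15 SE, edgeR adjusted p = 0.151). The transcription factor Sp5 had 2, 0 and 0 counts in the reporter-high and 38, 16 and 12 counts in the reporter-low libraries, which is at least 5.48-fold lower against the level of 3 counts in a single library. In all 5 of these genes no reporter-high library reached the lowest reporter-low library, and none passed edgeR's test, whereas DESeq2 counted Glul, Lgr5 and Tbx3 as lower. The feedback regulators Notum, Rnf43 and Znrf3 had log2 fold changes of -0.71, -0.45 and -0.33, and Nkd1, at under 1 CPM in every library, had 0.13.

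The transporters and amino acid enzymes of zone 3 had large differences. Slc1a2, a glutamate transporter of the cells that express Glul, was at 7.78, 4.41 and 8.48 CPM in reporter-high against 98.7, 51.8 and 45.7 CPM in reporter-low libraries (log2 fold change -3.26 ± 0.42 SE, edgeR adjusted p = 0.254). Oat, ornithine aminotransferase, was at 190, 88.3 and 145 CPM against 839, 445 and 406 CPM (-2.00 ± 0.41 SE, edgeR adjusted p = 0.56). Rhbg, an ammonium transporter, was at 0.55, 0.804 and 0.877 CPM against 4.31, 2.30 and 3.13 CPM (-2.11 ± 0.31 SE, edgeR adjusted p = 0.123). The 3 genes did not pass edgeR's test, whereas DESeq2 counted Slc1a2, Oat and Rhbg as lower (adjusted p of 1.14e-09, 0.00605 and 9.92e-07).

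Apart from Cyp2a5 (log2 fold change -1.94, given above), the cytochrome P450 genes of zone 3 and the other enzymes named here had smaller differences. Cyp2e1, which oxidises ethanol and converts CCl4 to its toxic radical, was at 1508, 506 and 1056 CPM in reporter-high against 3403, 2037 and 1573 CPM in reporter-low libraries (log2 fold change -1.19 ± 0.49 SE, edgeR adjusted p = 0.78). The highest reporter-high and lowest reporter-low libraries were here close, at 1508 and 1573 CPM. Cyp1a2 was at 135, 98.2 and 94.0 CPM against 300, 180 and 232 CPM (-1.12 ± 0.21 SE, edgeR adjusted p = 0.426). Cyp2c37, Cyp2c29 and Cyp2c50 had log2 fold changes of -0.87, -0.63 and -0.55, with reads that may be divided between members of the family. Gsta3, Aldh1a1, Rgn, Cpox and Akr1c6 had values between -0.34 and -0.04. Differences thus ran from beyond -3 in Slc13a3 and Slc1a2 to near 0 in Akr1c6.

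To show what lies at the start sites, the promoters of Slc13a3 and Slc1a2, the zone 3 genes of lowest log2 fold change with a mean above 1 CPM, are given, each with 250 bases before and 50 after the start, from RefSeq on GRCm38.p6 (the assembly that mm10 names). Slc13a3 is at chr2:165473148-165473447 on the minus strand and Slc1a2 at chr2:102706188-102706487 on the plus strand, at a start inside the span that the deposited table gives the gene (102658659 to 102790784). Capitals mark CTTTGA or its reverse complement TCAAAG, the core of the sequence bound by the TCF/LEF factors of the Wnt pathway.
Slc13a3: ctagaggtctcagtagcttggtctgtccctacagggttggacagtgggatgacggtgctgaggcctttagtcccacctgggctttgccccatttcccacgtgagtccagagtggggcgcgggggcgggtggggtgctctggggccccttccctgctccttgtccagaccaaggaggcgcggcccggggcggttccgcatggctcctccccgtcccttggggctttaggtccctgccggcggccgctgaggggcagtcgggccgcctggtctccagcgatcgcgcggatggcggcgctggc
Slc1a2: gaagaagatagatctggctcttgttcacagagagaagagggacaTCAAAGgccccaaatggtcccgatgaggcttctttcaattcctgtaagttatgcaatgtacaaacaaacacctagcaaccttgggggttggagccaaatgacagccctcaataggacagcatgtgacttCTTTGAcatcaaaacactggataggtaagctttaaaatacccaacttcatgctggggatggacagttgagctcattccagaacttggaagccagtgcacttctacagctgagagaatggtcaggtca
The core was found 2 times in Slc1a2 and not in Slc13a3. It was in 8 of 24 promoters of the 22 zone 3 genes that were matched in the RefSeq table, in 0 of 9 promoters of the 7 genes that fell, and in 16% of 32851 promoters of the same length. A match is a description of letters in a window and does not mark a bound site.

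Zone 1 genes lay slightly on the other side. Of 25 members tested, 21 had a log2 fold change above 0, with a median of 0.22 against 0.02 over all genes, and none passed edgeR's or DESeq2's test. In 7 of 25 members every reporter-high library lay above every reporter-low library, against 6.82% of all genes. Over the refits the median ranged from 0.15 with the replicate number as a block to 0.33 without Tom+ oil 3. By the deposited labels 8 of 25 members were below 0, with a median of 0.10. Sds, serine dehydratase, was at 385, 412 and 375 CPM in reporter-high against 280, 305 and 316 CPM in reporter-low libraries (log2 fold change 0.38 ± 0.09 SE, edgeR adjusted p = 0.511). Arg1, the arginase of the urea cycle, was at 1177, 1162 and 1042 CPM against 880, 902 and 897 CPM (0.34 ± 0.08 SE, edgeR adjusted p = 0.56). Classes overlapped for Hal, the histidine ammonia-lyase, at 672, 880 and 577 CPM against 451, 455 and 645 CPM (0.46 ± 0.19 SE, edgeR adjusted p = 0.776). They also overlapped for Cyp2f2, at 448, 587 and 255 CPM against 389, 228 and 567 CPM (0.12 ± 0.44 SE, edgeR adjusted p = 0.99). Within number 3, 22 of 25 members were higher in Tom+, compared with 52.5% of all genes.

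Of the zone 2 genes, Hamp, which encodes the iron hormone hepcidin, was at 253, 67.2 and 49.4 CPM in reporter-high against 202, 61.0 and 64.5 CPM in reporter-low libraries. The libraries Tom- 1 and Tom- 2 stood apart from the other 4, so that Hamp did not follow the classes (log2 fold change 0.17 ± 0.86 SE, edgeR adjusted p = 0.993). Igfbp2, a binding protein of insulin-like growth factors, was at 134, 86.7 and 108 CPM against 112, 83.2 and 95.4 CPM and did not pass either (0.18 ± 0.17 SE, edgeR adjusted p = 0.913).

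**Figure D3:**
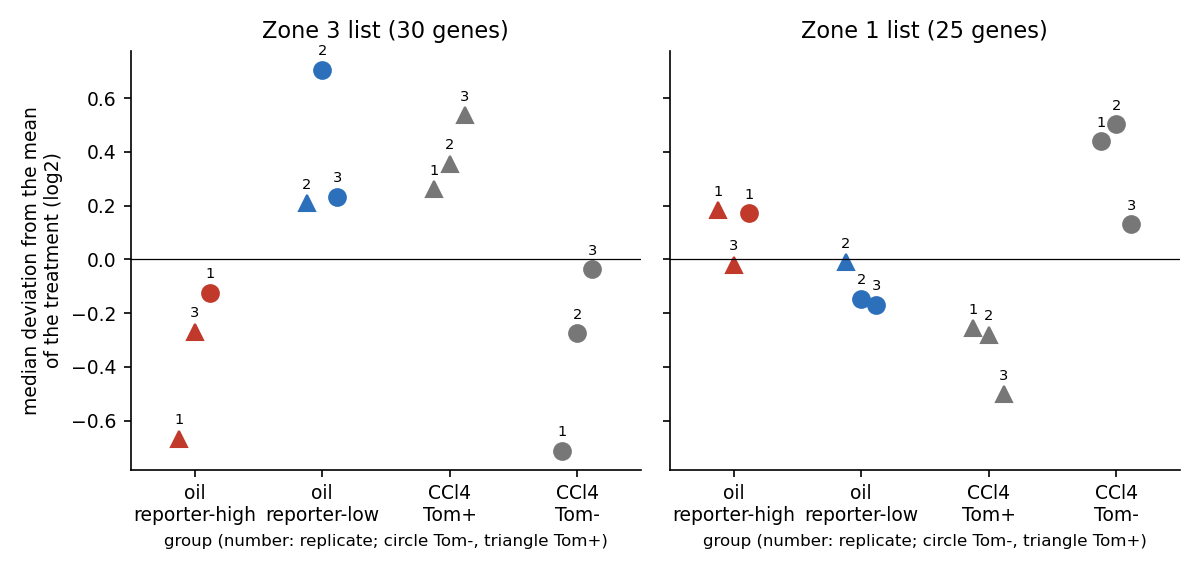
The level of the zone 3 list (left) and the zone 1 list (right) is plotted for each library as the median over members of log2(CPM + 0.1) minus the gene's mean over the 6 libraries of the same treatment, with circles for Tom-, triangles for Tom+ and the replicate number above each point. The zone 3 level was -0.12, -0.67 and -0.27 in reporter-high and 0.71, 0.23 and 0.21 in reporter-low oil libraries, whereas in CCl4 the Tom+ triangles lay above the Tom- circles.

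Per library, the zone 3 list was lowest in Tom+ oil 1 (-0.67) and highest in Tom- oil 2 (0.71), relative to the mean of the oil libraries on the log2 scale. The reporter-high libraries did not overlap with the reporter-low ones, of which Tom- oil 3 and Tom+ oil 2 lay close together (0.23 and 0.21). For zone 1 the levels were 0.17, 0.18 and -0.02 in Tom- 1, Tom+ 1 and Tom+ 3 and -0.15, -0.17 and -0.01 in Tom- 2, Tom- 3 and Tom+ 2. Here the classes overlapped, by Tom+ oil 3 and Tom+ oil 2.

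No gene passed in the direction of a rise. Genes were then picked among those with a mean of at least 1 CPM, classes that did not overlap and no predicted-gene name. The 5 of smallest p among them were Rps27a, Sds, Tff3, mt-Tl1 and Uqcr10. Rps27a, which encodes a ubiquitin fused to a ribosomal protein, was at 102, 68.8 and 84.0 CPM in reporter-high against 49.99, 42.9 and 39.9 CPM in reporter-low libraries (log2 fold change 0.94 ± 0.15 SE, edgeR adjusted p = 0.178), and DESeq2 counted it as higher. A processed copy of it, Rps27a-ps2, chosen after its values were seen, had a mean of 13.5 ± 3.03 CPM against 24.6 ± 3.29 CPM (SD, n = 3), the opposite direction. The values of both genes were not whole in 4 or more libraries, so that reads may be divided between them. Tff3, a secreted trefoil peptide, was at 2.28, 1.94 and 2.14 CPM against 0.924, 1.22 and 0.74 CPM (1.14 ± 0.26 SE, edgeR adjusted p = 0.516). The mitochondrial transfer RNA gene mt-Tl1 was at 15.2, 14.3 and 19.8 CPM against 8.50, 6.91 and 11.5 CPM (0.87 ± 0.20 SE, edgeR adjusted p = 0.527), and DESeq2 also counted it. Uqcr10, a subunit of respiratory complex III, was at 73.5, 73.4 and 68.9 CPM against 59.8, 51.9 and 57.6 CPM (0.35 ± 0.08 SE, edgeR adjusted p = 0.538). The lack of overlap between classes in these 5 genes was required by the choice and is not a result. Of all genes, 6.82% had it in this direction.

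Cdkn2a, the gene of p16Ink4a, did not pass the filter on low counts. The paper states for the human gene that it does not encode p16Ink4a alone, so counts of the whole gene are not a measure of p16Ink4a by itself. It had 3, 8 and 3 counts in the reporter-high and 1, 0 and 1 counts in the reporter-low libraries, at or under the limit of 3 counts in all but Tom+ oil 1. A difference in Cdkn2a between the oil classes was not detectable at this depth. In CCl4 it had 18, 8 and 21 counts in Tom- 1, 2 and 3 and 6, 0 and 1 counts in Tom+ 1, 2 and 3, and it was not tested there. Lif, a ligand of the LIF receptor, had 4 counts in Tom- oil 3 and 0 in the other 5 oil libraries. The related ligand Ctf1 was at 4.06, 2.43 and 3.44 CPM in reporter-high against 3.08, 3.11 and 1.88 CPM in reporter-low libraries, and Clcf1 was at 0.157, 0.23 and 0.146 CPM against 0.308, 0.163 and 0.436 CPM. Both overlapped between classes, with log2 fold changes of 0.29 ± 0.27 and -0.74 ± 0.56 (SE). Of 16 genes tested around p16, p53 and senescence, none passed edgeR's or DESeq2's test, 8 were above 0 and the median was -0.02, or 0.03 without Tom- oil 1. Cdkn1a (p21) was at 54.9, 49.7 and 126 CPM against 50.6, 114 and 44.99 CPM, with both libraries of number 3 above the other 4.

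Lists of other hepatocyte functions were examined in the same way. Genes of sterol synthesis were below 0 in 19 of 20 members with a median of -0.28, and in 6 members the reporter-high libraries all lay below the reporter-low ones, against 6.35% of all genes. Fdps, a synthase of isoprenoid precursors, was at 77.3, 71.1 and 77.5 CPM against 91.9, 96.3 and 96.0 CPM (log2 fold change -0.33 ± 0.08 SE, edgeR adjusted p = 0.511). Without the 2 libraries whose class and label disagree the sterol median was -0.11. Of 15 tested targets of the xenobiotic receptors, 12 were below 0 (median -0.21), and of 13 genes of bile acid synthesis and transport, 11 were (median -0.20). Cyp8b1, the sterol 12-alpha-hydroxylase, was at 150, 183 and 159 CPM against 230, 223 and 246 CPM (-0.51 ± 0.10 SE, edgeR adjusted p = 0.307). Abcc4, an exporter of bile acids and drugs, was at 1.91, 1.78 and 3.02 CPM against 5.50, 5.88 and 4.25 CPM (-1.22 ± 0.25 SE, edgeR adjusted p = 0.404). In the list of NRF2 and glutathione genes Gstm2 was the only member of 15 that passed edgeR's test, and its neighbour in the family Gstm3 was at 9.14, 12.6 and 8.95 CPM against 19.3, 16.3 and 23.4 CPM. Over the refits the xenobiotic median ranged from -0.35 without Tom- oil 1 to -0.17 without Tom+ oil 1. Cell cycle genes were below 0 in 17 of 20 members, with a median of -0.28. Over the refits it ranged from -0.56 without the 2 disagreeing libraries to -0.19 without Tom+ oil 3. By the deposited labels 16 of 20 members were below 0, with a median of -0.42, so the fall was not particular to the reporter classes. In 2 members the reporter-high libraries all lay below the reporter-low ones, against 6.35% of all genes. Mki67 was at 8.46, 7.88 and 9.16 CPM against 11.3, 12.4 and 11 CPM. Apart from the 2 zone 3 genes and Gstm2, no member of any list passed edgeR's test.

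Markers of other liver cells were present at low levels. The 12 endothelial markers summed to 237, 284.5 and 338 CPM in the reporter-high libraries Tom- 1, Tom+ 1 and Tom+ 3 and to 187, 285 and 196 CPM in the reporter-low libraries Tom- 2, Tom- 3 and Tom+ 2. All 12 had log2 fold changes above 0 (median 0.34, with 0.18 without Tom+ oil 3, 0.20 without Tom- oil 2 and 0.55 without Tom- oil 3), none passed edgeR's or DESeq2's test, and the summed levels overlapped between classes through Tom- oil 3. The 12 Kupffer cell markers summed to 109 CPM in Tom- oil 3 and 164 CPM in Tom+ oil 3, against 20.4 to 40.7 CPM in the other 4 libraries. Number 3 therefore stood apart in these markers in both classes, and the median of the list was 0.33, with -0.99 without Tom+ oil 3 and 1.28 without Tom- oil 3. Stellate cell markers summed to between 12.6 and 38.7 CPM, again highest in Tom+ oil 3. Of the 13 mitochondrially encoded genes 12 were above 0 (median 0.56), and by the deposited labels 0 of 13 were below 0 (median 0.57). The median by class was 0.36 without Tom- oil 3, 0.90 without Tom+ oil 2, 0.27 without both libraries of number 3 and 1.25 with the replicate block. In this list mt-Co1 was at 11359, 11217 and 14154 CPM against 7237, 5439 and 10463 CPM. The part of these levels in the differences between classes was not tested.

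**Figure D4:**
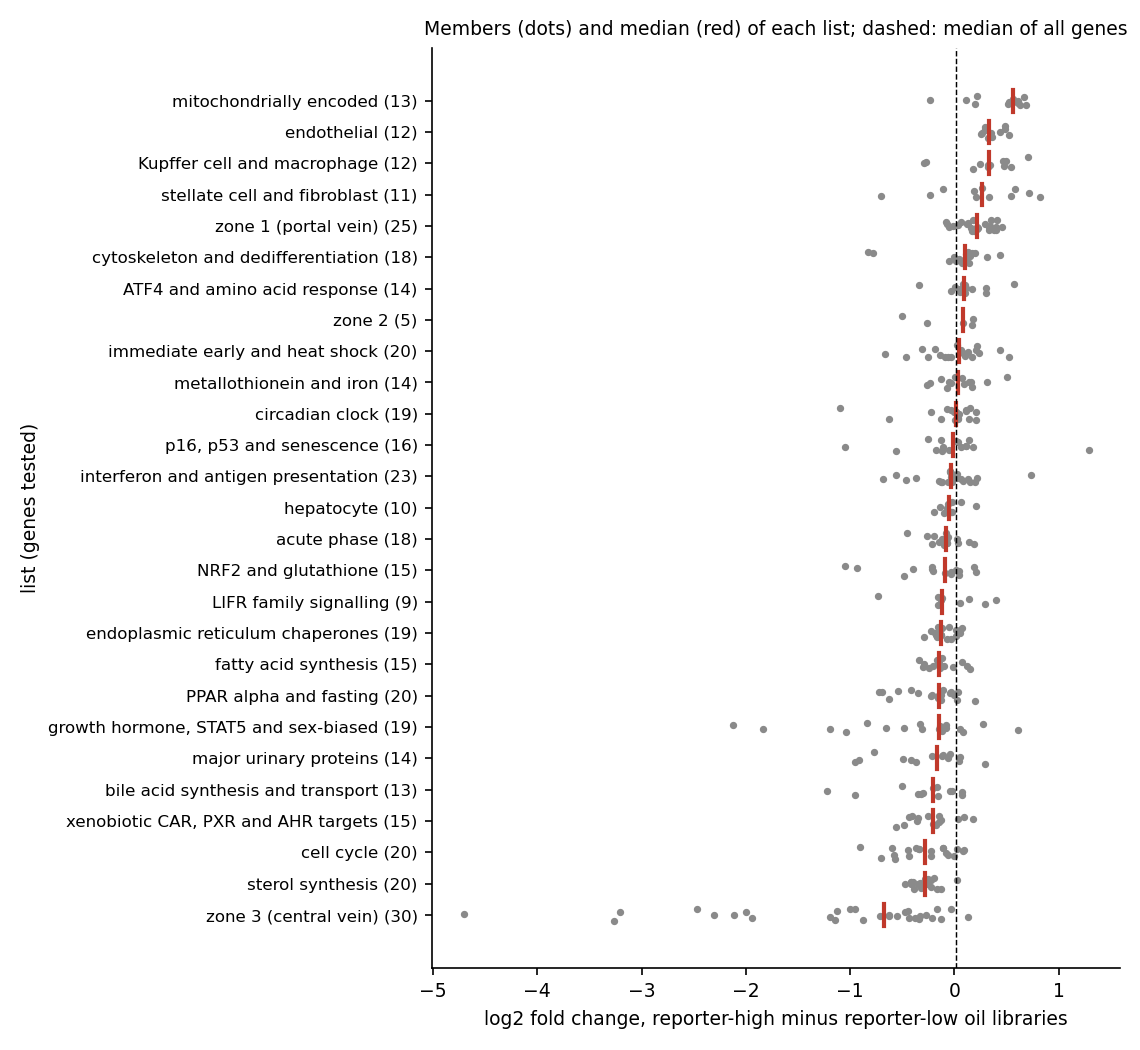
Each dot is the log2 fold change of 1 gene between reporter-high and reporter-low oil libraries, for each list with at least 5 tested members, with the list's median in red and the median of all genes (0.02) as a dashed line. The zone 3 list has the lowest median (-0.67) and the longest tail, and the list of mitochondrially encoded genes has the highest median (0.56).

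In a principal component analysis of the 6 oil libraries the first component held 35.7% of the variance and did not separate the classes. It placed Tom- 3 and Tom+ 3 at one end (27.7 and 40.7) and Tom- 1 and Tom- 2 at the other (-42.9 and -24.4), with Tom+ 1 at 3.63 and Tom+ 2 at -4.79. The third component, with 19.8%, placed the reporter-high libraries at -22.8, -24.0 and -10.7 and the reporter-low libraries at 34.8, 15.5 and 7.14. After the class means were taken out, the correlation of deviations over 16032 genes was positive for 3 pairs of a reporter-high and a reporter-low library: Tom+ 3 with Tom- 3 (0.416), Tom- 1 with Tom- 2 (0.375) and Tom+ 1 with Tom+ 2 (0.326). The other 6 such pairs lay between -0.289 and -0.0709. These correlations are across genes, which are not independent, and are given as a description of which libraries resembled each other.

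The CCl4 libraries, which the grouping did not use and where the reporter followed the labels, showed zone 3 genes in the opposite direction. Over 16276 genes edgeR counted 42 genes (0.258%) whose level rose in Tom+ relative to Tom- and 300 (1.84%) whose level fell. With the replicate number as a block these counts were 143 and 699, while they were 0 and 0 without Tom- CCl4 2, 0 and 2 without Tom+ CCl4 2, 20 and 126 without Tom+ CCl4 1, and 22 and 226 without Tom- CCl4 1. Of the 30 zone 3 genes, 28 had a log2 fold change above 0 in Tom+ (median 0.70), and 6 passed. Of the 25 zone 1 genes, all 25 were below 0 (median -0.74), and 9 passed. Slc13a3 was at 69.5, 43.8 and 67.0 CPM in Tom+ CCl4 1, 2 and 3 and at 21.2, 19.7 and 29.9 CPM in Tom- CCl4 1, 2 and 3 (log2 fold change 1.35 ± 0.22 SE, edgeR adjusted p = 0.0224). Slc1a4 was at 58.5, 59.1 and 70.8 CPM against 22.8, 27.2 and 40.8 CPM (1.05 ± 0.21 SE, edgeR adjusted p = 0.0365). Sds was at 126, 92.7 and 73.0 CPM against 265, 304 and 201 CPM (-1.40 ± 0.22 SE, edgeR adjusted p = 0.0211). These 3 genes thus changed in CCl4 in the direction opposite to their difference in oil. Endothelial markers also moved with this comparison, since all 12 were below 0 in Tom+ (median -0.85) and 10 passed, and the 13 mitochondrially encoded genes were all below 0 (median -0.77) with 6 that passed, and their part was not tested.

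The difference between the treatments was tested itself, in a fit of all 12 libraries that was chosen after the data were seen. Of 17120 genes, the contrast of Tom+ against Tom- in CCl4 exceeded that of reporter-high against reporter-low in oil in 56 (0.327%) and lay below it in 64 (0.374%). Among the 30 zone 3 genes 13 exceeded it and none lay below, and among the 25 zone 1 genes 8 lay below it and none exceeded it. The zone 3 count was 21 by DESeq2 and 11 by limma-voom, and it was 13 without the 2 libraries whose class and label disagree. It became 3 without Tom+ oil 1, 4 without Tom+ oil 3 or Tom- CCl4 2, 6 without Tom- oil 2, 7 without Tom+ CCl4 2, and 8 without Tom- CCl4 1, Tom+ CCl4 1 or Tom+ CCl4 3. On the log2 scale the difference was 4.57 ± 0.41 (SE, edgeR adjusted p = 0.00262) for Slc13a3 and 2.92 ± 0.29 (SE, edgeR adjusted p = 0.00262) for Slc1a4. For Glul it was 3.73 ± 0.69 (SE, edgeR adjusted p = 0.049), with 386, 224 and 468 CPM in Tom+ CCl4 against 84.8, 93.2 and 226 CPM in Tom- CCl4. Lgr5 (3.90 ± 0.66 SE, edgeR adjusted p = 0.0279), Oat (3.48 ± 0.54 SE, edgeR adjusted p = 0.0269) and Axin2 (2.58 ± 0.40 SE, edgeR adjusted p = 0.0171) differed in the same way. Cyp2d11, by contrast, was 9.29, 18.5 and 8.57 CPM in Tom- CCl4 and 6.47, 4.32 and 6.31 CPM in Tom+ CCl4, a log2 fold change of -1.08 against -1.18 in oil. Its difference of 0.10 ± 0.35 (SE, edgeR adjusted p = 0.946) did not pass, and neither did those of Cyp2a5, Ces2c and Gstm2 (adjusted p of 0.0926, 0.13 and 0.263).

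**Figure D5:**
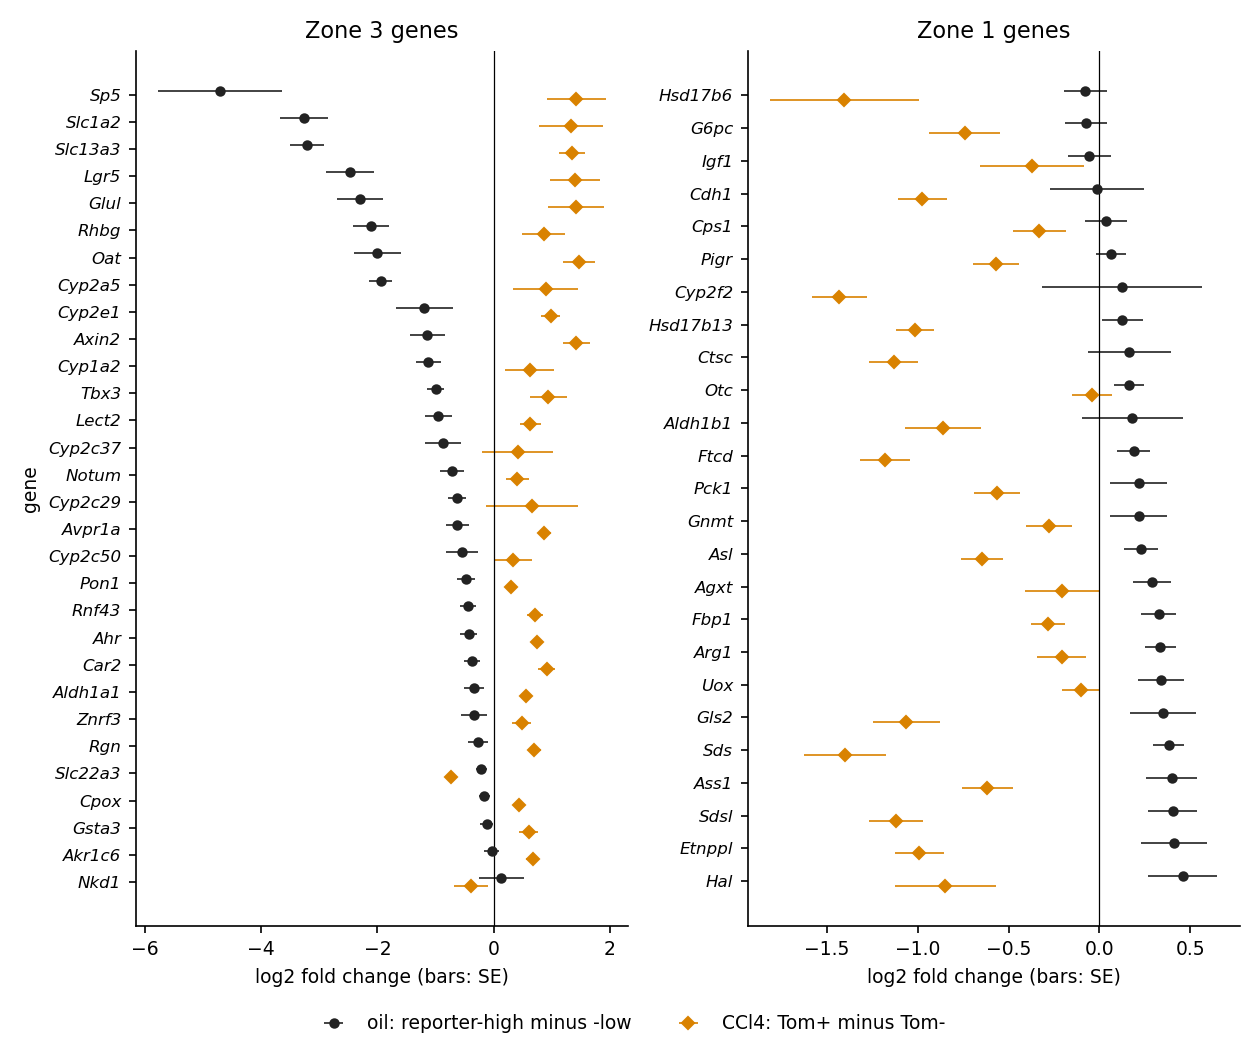
Log2 fold changes with their standard errors are plotted for the 30 zone 3 genes (left) and the 25 zone 1 genes (right), as circles for reporter-high minus reporter-low in oil and as diamonds for Tom+ minus Tom- in CCl4. In oil 29 of the 30 zone 3 genes lie below 0 and in CCl4 28 lie above it, whereas 21 of 25 zone 1 genes lie above 0 in oil and all 25 below 0 in CCl4, and the fitted value of Sp5 in oil rests on libraries with 0 to 2 counts.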

How the data were processed

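RNA of sorted p16-Tom hepatocytes was sequenced in 4 groups of 3 libraries. The authors checked reads with fastp (v0.23.2) before alignment by HISAT2 (v2.1.0) on mm10, as given in the submitters' processing notes, which also name DESeq2 (v1.42.1). The counting program and its strand setting are not given in the sources used here. The deposited values are expected counts per feature, not normalized, and 30.9% to 32.9% of the non-zero values in an oil library were not whole numbers, so they were rounded before testing, whereas the design had assumed whole counts. Of 54839 features, 54723 (99.8%) were matched to a symbol. All sample columns were used, and 0 were left out.

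The reporter classes came from CPM of column totals. Members and lists were chosen with earlier results of these data known. Genes were tested with edgeR (v4.0.16, R v4.3.3), using TMM factors, filterByExpr and the robust quasi-likelihood test, without the reporter, over the 6 oil libraries (16032 genes kept). Alternatives were DESeq2 (v1.42.0), limma-voom (limma v3.58.1), RLE or upper-quartile factors, other filters, 12 libraries, the replicate block, the label as a second term, and leaving out libraries. The fitting code was tested on simulated data. Plots used matplotlib (v3.10.9) under Python (v3.11.15). Correlations and components were computed on log2 CPM (prior count 2), and list levels used a pseudocount of 0.1 CPM.

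Same-numbered oil libraries correlated in their deviations from label means (0.334, 0.27 and 0.22 for numbers 3, 2 and 1 over 16032 genes). Numbers 1 and 2 each lie in 1 reporter class, so these values also hold the class difference. In deviations from the mean of all 6 libraries they were 0.208, -0.0564 and -0.18. Same-numbered CCl4 libraries correlated in their deviations from label means (0.325, 0.259 and 0.48 for numbers 1, 2 and 3 over 16276 genes). The reporter classes share only number 3. Named genes were those the paper names for its bulk RNA-seq and its zones, with Cdkn2a and the LIF receptor ligands, up to 10 genes past both thresholds in each direction whose mean reached 1 CPM without overlap of classes (5 of smallest p where none passed), and up to 4 members of each list by adjusted p. Other members of the zone lists and Rps27a-ps2 were named after their values were seen.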

Additional observations from a re-analysis of the deposited data

Results flagged for a closer look

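The 30 genes given here stood out because their contrast in CCl4 (Tom+ minus Tom-) differed from their contrast in oil (reporter-high minus reporter-low) by edgeR's test of the difference over 12 libraries, chosen after the data were seen, at an adjusted p-value under 0.05 and a log2 difference beyond 0.75. They were taken only from the named genes and the zone 3 and zone 1 lists. Over all 17120 genes 56 were higher and 64 lower, so the make-up of the 30 does not describe all genes that passed. In 18 genes the CCl4 contrast was the higher one and in 12 the lower one. The log2 differences of the 13 zone 3 genes were Sp5 (6.14), Slc1a2 (4.60), Slc13a3 (4.57), Lgr5 (3.90), Glul (3.73), Oat (3.48), Rhbg (2.98), Axin2 (2.58), Tbx3 (1.95), Avpr1a (1.51), Car2 (1.30), Ahr (1.19) and Rnf43 (1.16). Sp5 had 0 to 2 counts in the reporter-high oil libraries, so its value depends on the prior count of the fit. The 8 zone 1 genes were lower in the CCl4 contrast, by log2 differences for Asl (-0.86), Ass1 (-1.003), Hsd17b13 (-1.13), Ftcd (-1.36), Etnppl (-1.39), Gls2 (-1.40), Sdsl (-1.51) and Sds (-1.77). Outside the zones, the log2 difference was positive for Rcan2 (5.15), Slc1a4 (2.92), Abcc4 (2.20), Anxa2 (1.78) and Cdkn1c (1.49). Rcan2 was at 0.102, 0 and 0.45 CPM in the Tom- CCl4 libraries, at or near 3 counts in 2 of them. Of the 12 endothelial markers 5 passed on the other side, and those among the named genes were Stab2 (-0.93), Mrc1 (-1.19), Clec4g (-1.41) and Pecam1 (-1.48). The median of the 12 endothelial markers was 0.34 in the oil contrast and -0.85 in the CCl4 contrast, and its part in the differences was not tested.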

How the results depend on the processing

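For reporter-high against reporter-low oil libraries, the count of genes lower was 52 by DESeq2 (2 higher), 4 by limma-voom, 15 without the expression filter (1 higher), 3 in a fit of all 12 libraries, and 0 with the deposited label as a second term, without the 2 libraries whose class and label disagree, or without number 3. It was 0 with the fixed replicate block and 4 with the random replicate block. RLE and upper-quartile factors left it at 7. Leaving out 1 library gave 0 to 6 lower and 0 higher. The 7 genes kept their direction in 18 of 18 alternatives, with Slc13a3 between -3.42 and -2.71 and Gstm2 between -1.12 and -0.92. They were picked by this contrast and their classes did not overlap, so refits of these libraries could hardly reverse them. Whether they passed did depend on the alternative, as the counts above show. The median of the zone 3 list ranged from -0.90 to -0.49. Direction reversed for genes that did not pass: Hamp (-0.30 with the fixed replicate block, -1.19 without the disagreeing pair, and -0.91, -0.12 and -0.10 without Tom- oil 1, Tom- oil 3 and Tom+ oil 2), Cyp2f2 (-0.15 and -0.17 without Tom- oil 3 and Tom+ oil 1), Igfbp2 (-0.01494 without the pair and -0.006228 without Tom- oil 1) and Ctf1 (-0.10 without the pair). Over the fits that left out 1 library, the highest values of Igfbp2, Hamp and Cyp2f2 were 0.32, 0.97 and 0.48. The cause was not tested.

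The alternatives of the other comparisons were chosen after seeing the data. With the labels as deposited in oil, DESeq2 counted 6 higher and 18 lower, and the replicate block 0 and 18. In CCl4, DESeq2 counted 74 higher and 493 lower, the replicate block 143 and 699, and leaving out 1 library gave 0 to 60 higher and 0 to 278 lower. For the difference between the treatments DESeq2 counted 150 higher and 264 lower, with 21 zone 3 genes. Leaving out 1 library gave 17 to 65 higher, 12 to 82 lower and 3 to 15 zone 3 genes. The replicate block reaches the reporter contrast only through number 3. With 3 libraries a class, levels near 3 counts, such as those of Cdkn2a in oil, were not resolved.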
